A study of Mus musculus with 7 samples.

Results

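The enzymes that make phosphatidylcholine, phosphatidylethanolamine and phosphatidylserine, the bulk phospholipids of the endoplasmic reticulum (ER) membrane, were examined in epididymal fat of mice that overexpress XBP1. The 10 genes were chosen by their place in the pathway: Chka, Chkb, Pcyt1a, Chpt1 and Cept1 of the choline branch, Etnk1 and Pcyt2 of the ethanolamine branch, Pemt, and Ptdss1 and Pisd of the serine exchange route. Each gene was read by the probe set that the array's platform annotation pairs with that symbol alone. This gave 9 measured genes, with 1 probe set each, of 19938 genes so measured on the array. The probe set of Chkb also carries another gene's symbol, so Chkb is not described.

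The study compared 3 samples from aP2-XBP1 transgenic mice with 4 from wild type mice. All animals were males on the C57Bl/6J background, fed chow and killed at 17 weeks, and the tissue was the epididymal white fat pad, a visceral depot that lies against the epididymis. The aP2 promoter drives Fabp4 in adipocytes and is also known to be active in macrophages. Replicates are numbered in the labels, which do not state that each is a different animal, so a p-value here weighs the spread among samples that may in part be technical. Each sample was read on 1 array of 1 colour, and the authors deposited log2 expression values made with RMA, in which 1 unit is a doubling.

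Phosphatidylcholine and phosphatidylethanolamine are made in parallel branches of the Kennedy pathway. A kinase phosphorylates choline or ethanolamine, a cytidylyl-transferase activates it with CTP, and a phosphotransferase joins it to diacylglycerol. Pemt methylates phosphatidylethanolamine to phosphatidylcholine, mainly in liver. Ptdss1 exchanges the choline of phosphatidylcholine for serine, and Pisd turns the resulting phosphatidylserine into phosphatidylethanolamine in mitochondria. XBP1 directs part of the unfolded protein response by binding DNA, and in mouse fibroblasts its spliced form is known to raise phosphatidylcholine synthesis and to enlarge the ER.

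Promoter windows are shown because the manipulated gene encodes a DNA-binding factor. RefSeq windows of GRCm38.p6, from 250 bases before to 50 bases after an annotated start, were matched by symbol for 8 of the 10 genes, in 14 windows. They were searched on both strands for the unfolded protein response element TGACGTGG, the XBP1 core GACGTG, the short core CCACG, and the longer ER stress elements I and II, which both contain that core. The windows of Chpt1 and Chka are printed because these genes had the largest difference in each direction, that of Pisd because it had the smallest p, and that of Cept1 because it holds GACGTG. Capitals mark every match, 5′ to 3′ on the strand of the gene (CGTGG is CCACG read from the opposite strand).
Chpt1, chr10:88503921-88504220, minus strand: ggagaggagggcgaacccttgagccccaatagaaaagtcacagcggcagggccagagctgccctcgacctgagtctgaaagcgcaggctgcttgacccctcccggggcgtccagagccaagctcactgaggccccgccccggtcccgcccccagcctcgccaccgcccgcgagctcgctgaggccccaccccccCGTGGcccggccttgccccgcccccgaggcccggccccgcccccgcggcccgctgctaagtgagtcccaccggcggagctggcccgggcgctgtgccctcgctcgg
Chka, chr19:3851523-3851822, plus strand: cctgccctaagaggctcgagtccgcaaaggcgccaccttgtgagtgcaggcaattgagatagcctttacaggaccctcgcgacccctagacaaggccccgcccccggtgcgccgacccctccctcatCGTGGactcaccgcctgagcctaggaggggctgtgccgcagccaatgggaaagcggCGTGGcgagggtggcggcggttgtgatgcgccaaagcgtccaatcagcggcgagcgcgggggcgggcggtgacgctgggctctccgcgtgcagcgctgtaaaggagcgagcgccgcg
Cept1, chr3:106547576-106547875, minus strand: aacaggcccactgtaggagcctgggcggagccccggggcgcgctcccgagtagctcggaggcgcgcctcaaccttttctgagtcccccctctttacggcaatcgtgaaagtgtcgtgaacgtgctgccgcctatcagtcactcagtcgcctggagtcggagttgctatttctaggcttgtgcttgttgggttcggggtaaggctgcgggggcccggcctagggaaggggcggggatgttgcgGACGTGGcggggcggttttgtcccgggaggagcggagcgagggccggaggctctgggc
Pisd, chr5:32785577-32785876, minus strand: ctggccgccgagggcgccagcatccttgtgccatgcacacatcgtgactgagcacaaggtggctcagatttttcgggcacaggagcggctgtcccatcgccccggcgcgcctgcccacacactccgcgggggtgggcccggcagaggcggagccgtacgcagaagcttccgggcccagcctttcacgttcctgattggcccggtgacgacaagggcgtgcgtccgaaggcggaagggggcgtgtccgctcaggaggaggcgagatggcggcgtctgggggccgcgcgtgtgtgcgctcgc

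The short core CCACG occurred in 7 of the 14 windows, those of Cept1, Chka, Chkb, Chpt1 and Pcyt1a, against 32.8% of all 32851 windows in the table. Windows of 1 gene can overlap, and the 2 matches of Pcyt1a are a single site that lies in both of its windows. G and C made up 51.7% to 75.3% of the 7 windows with CCACG and 27.3% to 75.3% of all 14. The median over all windows was 52.7%, and the shares of windows with a match were not adjusted for base composition. In Chpt1 it began 56 bases before the start, and in Chka it began 123 and 67 bases before the start. GACGTG occurred in 1 window, the printed window of Cept1, where it overlaps a CCACG core and begins 8 bases before the start, against 6.38% of all windows. TGACGTGG and both ER stress elements occurred in 0 of the 14 windows, against 0.676%, 0.119% and 0.0365% of all windows. The printed window of Pisd held 0 matches to any of the 5 motifs.

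Xbp1 was read as a check of the labels. It stood at 9.76, 9.99 and 9.66 in transgenic replicates 1 to 3, against 8.90, 9.07, 8.94 and 9.19 in wild type replicates 1 to 4. Every transgenic library was above every wild type library. Fabp4, an adipocyte gene with the promoter used for the transgene, read 12.24, 12.32 and 12.34 in transgenic replicates 1 to 3, against 11.77, 12.31, 12.09 and 12.17 in wild type replicates 1 to 4. The libraries also differed in the RNA of marker genes of tissue around the fat cells. The mean of 7 measured epididymal epithelium markers of 8 listed was 2.65 to 3.05 in transgenic libraries, 2.59 in wild type replicate 2 and 5.54 to 5.93 in the other wild type libraries. The transgenic mean was higher for 4 of the 7 and lower for 3, and these 3, Serpina1f, Spink8 and Defb42, were listed because an earlier look at these data had shown them. Among the 4, Lcn8 and Rnase9 had means under 3.07, the 95th percentile of olfactory receptor probe sets. Their higher transgenic means are therefore read from values near the floor. Serpina1f read 2.90, 3.73 and 2.83 in transgenic replicates 1 to 3, against 10.70, 2.74, 10.84 and 11.50 in wild type replicates 1 to 4. All 6 smooth muscle markers had a lower transgenic mean, Myh11 with a difference of -2.21, and the mean of the 6 was 6.74 to 7.40 in transgenic libraries, 7.31 in wild type replicate 2 and 9.84 to 10.45 in the others. All 8 adipocyte markers had a higher transgenic mean, and the mean of the 8 was 11.09 to 11.23 in transgenic libraries, 11.15 in wild type replicate 2 and 10.43 to 10.81 in the others. All 5 macrophage markers had a lower transgenic mean (median difference -0.59), and all 4 endothelial markers were higher (median 0.25). Macrophage markers averaged 7.60 to 7.96 in transgenic and 7.12 to 9.08 in wild type libraries, and endothelial markers 8.23 to 8.47 in transgenic and 7.85 to 8.38 in wild type libraries. Stromal progenitor markers averaged 10.16 to 10.32 in transgenic and 10.04 to 10.82 in wild type libraries, and mesothelial markers 6.56 to 7.15 in transgenic and 5.89 to 7.21 in wild type libraries. In a whole fat pad, fewer cells of a type and less RNA per cell cannot be told apart. Differences of the phospholipid genes are therefore also given against wild type replicate 2 alone, which is a single library with no spread of its own.

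Of the 9 phospholipid genes, 7 had a higher and 2 a lower mean in transgenic fat, where 53.6% of all probe sets had a higher one. At a limma adjusted p of 0.05, 0 of the 9 passed in either direction, as did 0 of all 21789 probe sets tested (0%). At an unadjusted limma p under 0.05, 3 of the 9 were higher, Chpt1, Pcyt2 and Pisd, against 4.82% of all probe sets. On the same rule 1 of the 9 was lower, Chka, against 3.12% of all probe sets. Setting all arrays to 1 median turned these counts into 4 higher and 0 lower of the 9, and those of all probe sets into 1900 higher (8.72%) and 446 lower (2.05%), against 1050 and 679 as deposited. Only 1 of the 9 was higher without transgenic replicate 2 (3.32% of all probe sets), transgenic replicate 3 (2.96%) or wild type replicate 1 (3.66%), and Chka missed the threshold without any library other than wild type replicate 2. The groups did not overlap for 2 of the 9, Pemt and Pisd, both higher in transgenic fat, against 3.38% of probe sets higher and 2.44% lower. Setting all arrays to 1 median gave 4 of the 9 higher and 0 lower on this rule, but also 20.1% of all probe sets higher and 1.41% lower. With fewer libraries the rule is easier to meet. It gave 4 of the 9 higher without transgenic replicate 1 (8.17% of all probe sets) or wild type replicate 2 (8.23%), and 1 lower without transgenic replicate 2 (4.51%) or wild type replicate 2 (5.58%). The median difference of the 9 was 0.09 on the log2 scale, beside 0.01 over all probe sets. None of the 9 probe sets was dim, that is, had a mean under 3.07, the 95th percentile of 1035 olfactory receptor probe sets.

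**Figure D1:**
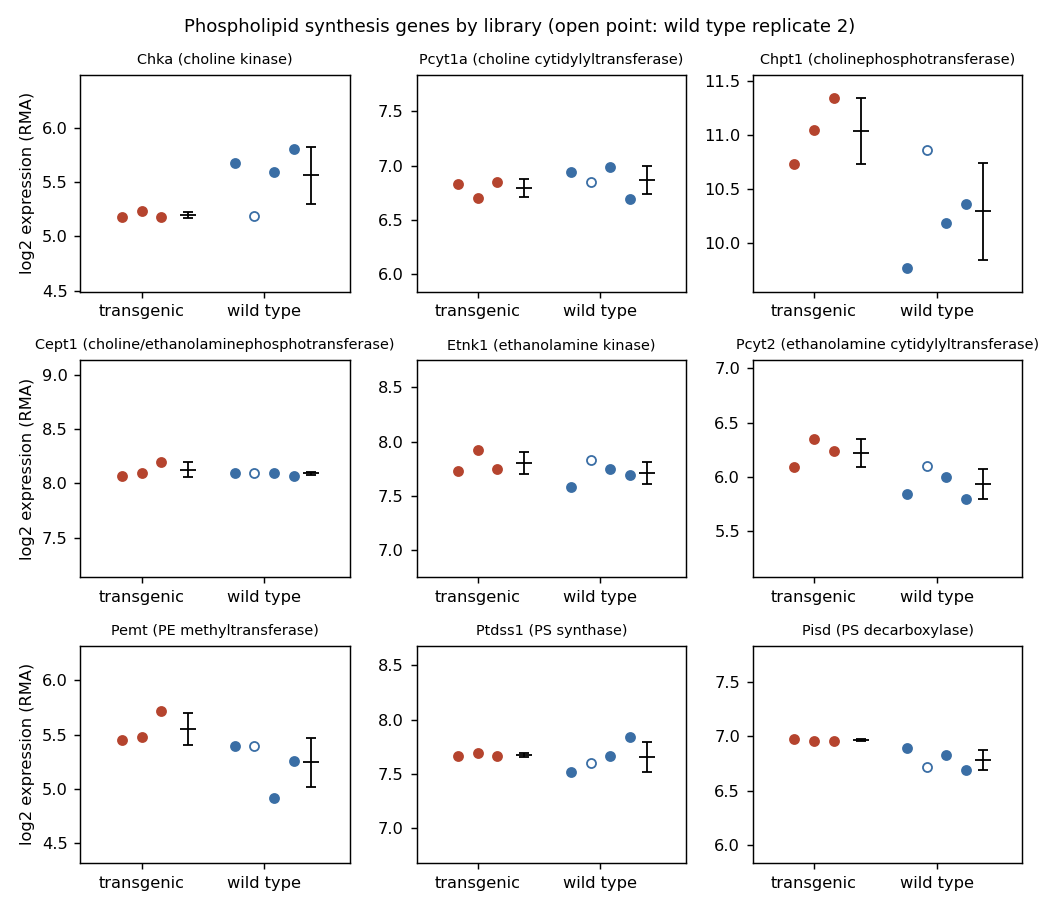
Log2 expression of the 9 measured genes in 3 transgenic (red) and 4 wild type (blue) libraries, with replicates from left to right and the mean ± SD beside them. Each panel spans 2 log2 units, and wild type replicate 2 (open) lies among or near the transgenic points for Chka and Chpt1 and below them for Pisd.

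Chpt1 had the largest difference of the 9 genes. It encodes the cholinephosphotransferase of the Golgi, which makes phosphatidylcholine in the last step of the choline branch. Chpt1 read 10.73, 11.04 and 11.34 in transgenic replicates 1 to 3, against 9.77, 10.86, 10.19 and 10.36 in wild type replicates 1 to 4. Wild type replicate 2 lay above transgenic replicate 1, so the groups overlapped, while the other 3 wild type libraries were below all transgenic ones. The mean was 11.04 ± 0.31 (SD, n = 3) in transgenic and 10.30 ± 0.45 (SD, n = 4) in wild type fat, a 1.67-fold difference (log2 difference 0.74, SE 0.27) with a limma adjusted p = 0.622. The difference was 0.18 (SE 0.31) against wild type replicate 2 alone, and without that library it was 0.93 with a limma adjusted p = 0.239. The adipocyte marker mean was likewise higher in the transgenic libraries and wild type replicate 2 than in the other wild type libraries, and its part in the Chpt1 difference was not tested.

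Cept1, the ER enzyme that uses both CDP-choline and CDP-ethanolamine, had a difference close to 0. It read 8.07, 8.10 and 8.20 in transgenic replicates 1 to 3, against 8.10, 8.10, 8.10 and 8.07 in wild type replicates 1 to 4. The difference was 0.03 on the log2 scale, with a 95% interval from -0.07 to 0.14.

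At the head of the choline branch, Chka had the most negative difference of the 9. It encodes choline kinase alpha, which commits choline to the pathway. Chka read 5.18, 5.23 and 5.18 in transgenic replicates 1 to 3, against 5.68, 5.19, 5.59 and 5.80 in wild type replicates 1 to 4. The transgenic libraries and wild type replicate 2 lay within a narrow band, and the other 3 wild type libraries were above it. The mean was 5.20 ± 0.03 (SD, n = 3) in transgenic and 5.56 ± 0.26 (SD, n = 4) in wild type fat, a log2 difference of -0.36 (SE 0.14, limma adjusted p = 0.622). The difference was 0.014 against wild type replicate 2 alone, and without that library it was -0.49 with a limma adjusted p = 0.0714. The wild type libraries with more Chka are those with higher smooth muscle markers and with Serpina1f, Spink8 and Defb42, and the part of these in the difference was not tested.

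Pcyt1a, the choline cytidylyl-transferase that is rate-limiting for phosphatidylcholine, showed no difference beyond its spread. It read 6.83, 6.70 and 6.85 in transgenic replicates 1 to 3, against 6.94, 6.85, 6.99 and 6.69 in wild type replicates 1 to 4. Transgenic values lay inside the range of wild type values. The difference was -0.07 (SE 0.08), and its 95% interval allows 0.828- to 1.09-fold. None of the 4 measured genes of the choline branch passed the test.

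In the ethanolamine branch, Pcyt2 had the larger difference. It encodes the ethanolamine cytidylyl-transferase, the regulated step of that branch. Pcyt2 read 6.09, 6.35 and 6.24 in transgenic replicates 1 to 3, against 5.84, 6.10, 6.00 and 5.80 in wild type replicates 1 to 4. Only transgenic replicate 1 and wild type replicate 2 met, at nearly the same value. The mean was 6.22 ± 0.13 (SD, n = 3) in transgenic and 5.93 ± 0.14 (SD, n = 4) in wild type fat, a 1.22-fold difference (log2 difference 0.29, SE 0.10, limma adjusted p = 0.622). It was 0.13 (SE 0.13) against wild type replicate 2 alone.

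Etnk1, the ethanolamine kinase, read 7.73, 7.92 and 7.75 in transgenic replicates 1 to 3, against 7.58, 7.83, 7.75 and 7.69 in wild type replicates 1 to 4. The groups overlapped, with a difference of 0.09 and a 95% interval of 0.936- to 1.21-fold. Its sign turned, to -0.023, against wild type replicate 2 alone.

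Pemt was higher in every transgenic library than in every wild type library, by a small margin. It read 5.45, 5.48 and 5.72 in transgenic replicates 1 to 3, against 5.40, 5.40, 4.92 and 5.26 in wild type replicates 1 to 4. The lowest value was that of wild type replicate 3 and the highest that of transgenic replicate 3. The mean was 5.55 ± 0.15 (SD, n = 3) in transgenic and 5.25 ± 0.23 (SD, n = 4) in wild type fat, a 1.24-fold difference (log2 difference 0.30, SE 0.14, limma adjusted p = 0.634). Pemt is known best from hepatocytes, and the mean of the hepatocyte markers Alb, Ttr and Apoa1 was 4.63 to 5.86 in transgenic and 4.30 to 5.23 in wild type libraries. Their part in the Pemt difference was not tested. The Pemt difference was 0.15 (SE 0.15) against wild type replicate 2 alone.

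Pisd had the smallest p of the 9 genes and the most even values within the transgenic group. It encodes the phosphatidylserine decarboxylase of the inner mitochondrial membrane. Pisd read 6.98, 6.96 and 6.96 in transgenic replicates 1 to 3, against 6.89, 6.72, 6.83 and 6.69 in wild type replicates 1 to 4. All transgenic libraries were above all wild type libraries. The mean was 6.97 ± 0.01 (SD, n = 3) in transgenic and 6.78 ± 0.09 (SD, n = 4) in wild type fat, a 1.14-fold difference (log2 difference 0.19, SE 0.06, limma adjusted p = 0.622). Its p ranked 456 among 21789 probe sets. Against wild type replicate 2 alone the difference was 0.25, with a limma adjusted p = 0.0979. That fit takes its spread from the transgenic libraries, which differed by 0.01 at most, and 6.97% of all probe sets were higher in it at an unadjusted p under 0.05.

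Ptdss1, the serine exchange enzyme that supplies phosphatidylserine, had the difference closest to 0. It read 7.66, 7.69 and 7.66 in transgenic replicates 1 to 3, against 7.52, 7.60, 7.66 and 7.84 in wild type replicates 1 to 4. The difference was 0.02, with a 95% interval of 0.888- to 1.15-fold, and its sign turned when wild type replicate 1 (-0.029) or wild type replicate 2 (-0.0040) was left out and when the arrays were quantile-normalized again (-0.0026).

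**Figure D2:**
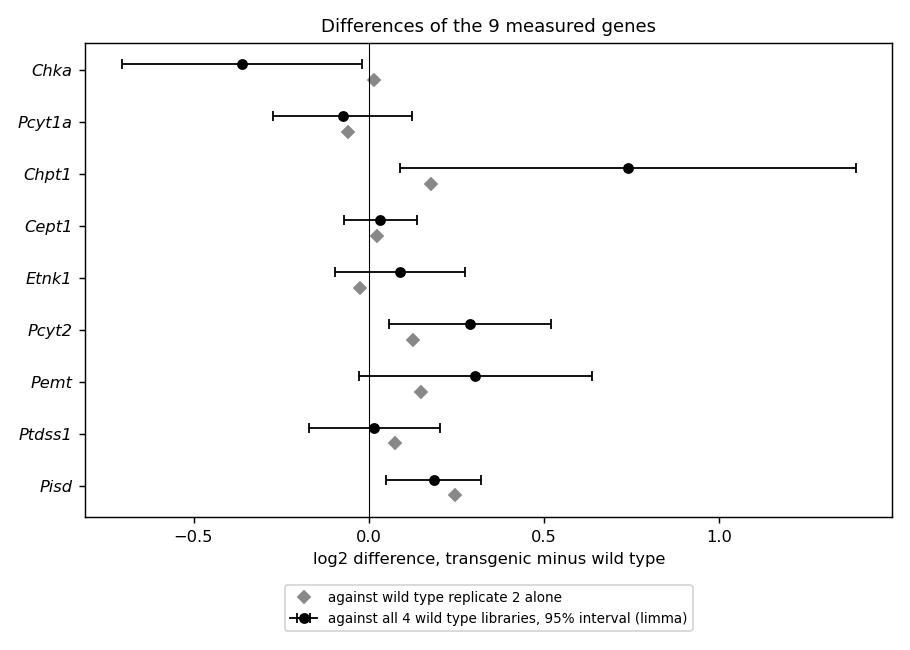
Log2 difference, transgenic minus wild type, of the 9 genes with limma's 95% interval (black), and the difference against wild type replicate 2 alone (grey diamonds). The diamond of Chka lies at 0.01 and that of Chpt1 at 0.18, well below its black point (0.74), while that of Pisd (0.25) lies above its black point (0.19).

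The neighbouring steps of phospholipid synthesis were described with lists of 39 further genes, of which 38 were measured. At a limma adjusted p of 0.05, 0 of the 38 passed, and at an unadjusted p under 0.05 limma gave 6 higher and 2 lower, where 4.82% of all probe sets were higher and 3.12% lower. Of the 38, 22 had a higher transgenic mean (57.9%), where the share over all probe sets was 53.6%. Their median difference was 0.06, and -0.00023 against wild type replicate 2 alone. Among further isoforms and the last ethanolamine step, 2 of 3 genes had a higher transgenic mean. Selenoi, the ethanolaminephosphotransferase that shares the last step with Cept1, read 7.56, 7.65 and 7.47 in transgenic replicates 1 to 3, against 6.90, 7.25, 7.04 and 7.16 in wild type replicates 1 to 4. All transgenic libraries were above all wild type libraries, with a difference of 0.47 (SE 0.09, limma adjusted p = 0.622) that was 0.31 against wild type replicate 2 alone. Ptdss2, a second serine exchange enzyme, differed by 0.22 with overlapping groups.

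The supply of phosphatidic acid and diacylglycerol, the lipid substrate of the Kennedy pathway and of triglyceride synthesis, was the longest of these lists. Of its 12 genes 9 had a higher transgenic mean, against 53.6% of all probe sets. In 4 of the 12 every transgenic library was above every wild type library, against 3.38% of all probe sets as deposited and 20.1% with a common median. These were the glycerol-3-phosphate acyltransferases Gpam (difference 0.79), Gpat3 (0.72) and Gpat4 (0.48), and the lysophosphatidic acid acyltransferase Agpat3 (0.33). Against wild type replicate 2 alone the same 4 differed by 0.38, 0.32, 0.22 and 0.28. The list's median was 0.22 against all wild type libraries and 0.10 against that library alone.

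Of the 8 genes of choline supply 3 had a higher transgenic mean, against 53.6% of all probe sets, and the list's median was -0.04. The choline transporters Slc5a7 (-0.58) and Slc44a2 (-0.15) had its smallest p, with overlapping groups. In the CDP-diacylglycerol branch, which leads to phosphatidylinositol and cardiolipin, 6 of 7 genes had a higher transgenic mean, beside 53.6% of all probe sets. The median of this branch was 0.13, and Tamm41, its mitochondrial synthase, differed by 0.11. The exception was the CDP-diacylglycerol synthase Cds1, at 5.84, 5.80 and 5.35 in transgenic replicates 1 to 3, against 6.25, 5.90, 6.22 and 7.04 in wild type replicates 1 to 4. All transgenic libraries were below all wild type ones, with a difference of -0.69 that was -0.23 against wild type replicate 2 alone. Among 8 acyltransferases of chain remodelling 2 had a higher transgenic mean, beside 53.6% of all probe sets, and the list's median was -0.11. Mboat1 differed by -1.06 and Lpcat1 by -0.27, and against wild type replicate 2 alone these were -0.13 and -0.12.

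**Figure D3:**
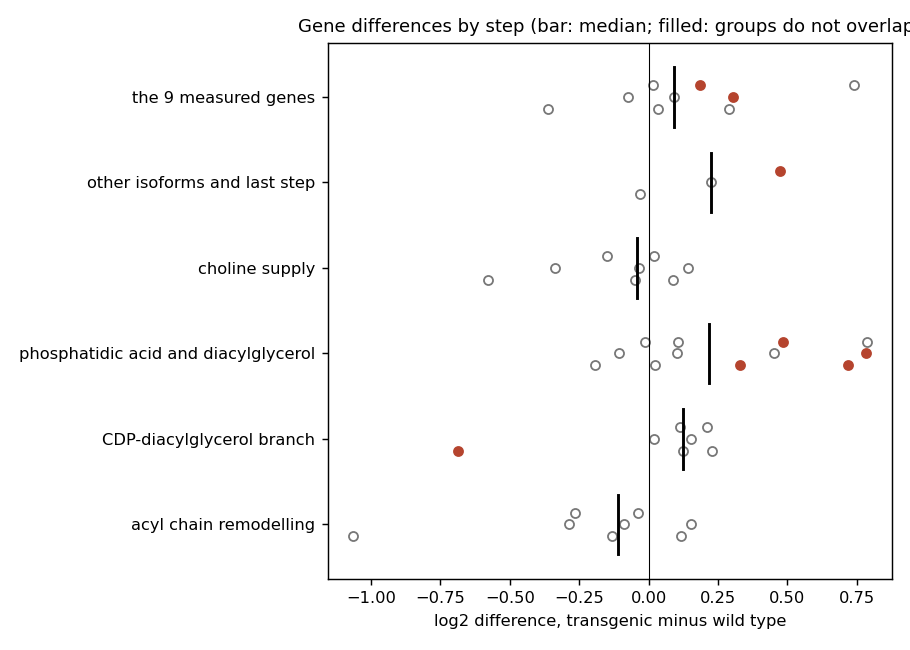
Log2 difference, transgenic minus wild type, of the 9 genes and of 38 further genes grouped by step (points), with the median of each list (bar). Filled points mark genes whose groups do not overlap, 2 of the 9, 4 of the 12 genes of phosphatidic acid and diacylglycerol supply, Selenoi among further isoforms, and Cds1, the only 1 of these with a negative difference.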

How the data were processed

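RNA of 7 samples was measured on arrays. The authors deposited log2 expression values made with RMA, per the submitters' processing notes, and the RMA version is not given in the sources used here. RNA with an integrity number above 8.0 was labelled without removal of ribosomal RNA, per the labels' protocols. RMA normalizes arrays to each other, which can remove a shift of all genes, and it leaves many equal values across arrays. The deposited arrays did not share 1 distribution exactly, with medians of 3.99 to 4.01 in transgenic and 4.03 to 4.04 in wild type samples, and precision is limited by how few arrays there are. All 7 columns were used.

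Of 35556 rows, 21789 had exactly 1 gene symbol in the platform annotation, 1621 had several and 12146 had none listed. A linear model with a single genotype term was fitted to these 21789 in R 4.3.3 with limma 3.58.1 (moderated two-sided tests, Benjamini-Hochberg adjustment). Folds were taken as 2 raised to the log2 difference. The fit was tested on simulated data. Alternatives were a replicate block, 2 other scalings, a filter on dim probe sets, every row, a single probe set for each gene, a robust prior with an intensity trend, weights for arrays (statmod 1.5.0), leaving out each library, wild type replicate 2 as the only control and an adjusted p of 0.1. Each gene had 1 probe set, so other probe sets could not be tried. Tables and figures used Python 3.11.15, pandas 2.3.3 and matplotlib 3.10.9.

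The genes, lists, markers and tests were chosen with earlier results of these data known. All 9 measured genes are named. Of each further list the 2 genes with the smallest p and those with groups that do not overlap are named. For the gene with the largest range over the 7 libraries, the 5 genes of nearest profile are named.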

Additional observations from a re-analysis of the deposited data

Results flagged for a closer look

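Cept1 read 8.07 in wild type replicate 4, below the other 3 wild type libraries, which all read 8.10. The gap made up the whole range of the group, 0.03 on the log2 scale, since the other 3 values were equal. Chance sets 1 sample apart in this way in about 1 in 20 groups where no values are equal, and 9 groups were tested. Any other value beside 3 equal ones is flagged, so that rate does not apply to this group.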

How the results depend on the processing

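With limma, 0 of the 9 genes passed an adjusted p of 0.05 under any alternative. A threshold of 0.1 was tried only on the fit as reported, where the counts over all probe sets stayed at 0. Without wild type replicate 2, Chka had a limma adjusted p = 0.0714. Of 144 differences of single genes over 16 alternatives, 138 kept their sign and 6 turned it. The filter on dim probe sets, every row, a single probe set for each gene and the robust prior cannot change a difference. Those alternatives could not turn a sign, so the 138 include differences that were fixed in advance. The replicate block also gave the same differences as leaving out wild type replicate 4. Ptdss1 was -0.0026 after another round of quantile normalization, and -0.029 to 0.077 with 1 library left out. Cept1 was -0.0051 to 0.059 with 1 library left out. Chka was 0.014 and Etnk1 -0.023 against wild type replicate 2 alone.

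Leaving out 1 library at a time gave 0 to 7 probe sets higher and 0 to 84 lower at an adjusted p under 0.05, the highest counts being those without wild type replicate 2. At an unadjusted limma p under 0.05 it gave 607 to 1451 probe sets higher (2.79% to 6.66%) and 333 to 978 lower (1.53% to 4.49%). Of the 9 genes, 1 to 3 were then higher and 0 to 1 lower. Without overlap of the groups it gave 884 to 1793 probe sets higher (4.06% to 8.23%) and 583 to 1353 lower (2.68% to 6.21%). On that rule 2 to 4 of the 9 genes were higher and 0 to 1 lower, where fewer samples make this easier. The median of the 38 further genes was 0.015 to 0.091.

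With a common median, limma's unadjusted counts were 1900 higher and 446 lower, with 0 of the 9 genes lower. The counts without overlap were then 4370 higher and 307 lower, with 4 of the 9 genes higher (20.1% of all probe sets), and the median of the further genes was 0.097. After another quantile normalization 4 of the 9 genes were higher at an unadjusted p (6.15% of all probe sets) and 0 lower (2.96%). Without overlap, 2018 probe sets (9.26%) were then higher. With array weights 1980 probe sets were higher and 1775 lower at an unadjusted p. Testing every row gave 1106 higher and 884 lower without overlap, since more rows are counted. Without the dimmest probe sets the median of the further genes was 0.096.

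Against wild type replicate 2 alone, 1 of the 9 genes was higher and 0 lower at an unadjusted p, 1250 probe sets were lower, 5223 were higher and 4530 lower without overlap, and the median of the further genes was -0.00023. On the rule of no overlap 3 of the 9 genes were higher against that library and 0 lower, beside 24% and 20.8% of all probe sets. With 1 wild type library the spread comes from the transgenic libraries alone. The p-values of that fit therefore cannot decide whether a gene differs by genotype. The cause of the changed counts and median in that fit was not tested. With a replicate block 2 of the 9 genes were higher (3.84% of all probe sets) and 1 lower (3.81%) at an unadjusted p. The median of the further genes was then 0.091. Wild type replicate 4 has no transgenic sample of its number, so the block takes it out of the genotype difference. Deviations of same-numbered samples correlated at -0.14, -0.09 and 0.06, so the numbers were not taken as pairs, and not every sample correlated best with its own number. Scanner signals were not used, so signal over background could not be judged beyond the olfactory receptor level.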

Other observations

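Chpt1 had the largest range of the 9 genes over the 7 libraries, 1.57 on the log2 scale. The 5 genes whose centred profile was nearest to it were Rbp4, a retinol carrier, Sult1a1, a sulfotransferase, Ahcyl2, Mccc1, a subunit of the leucine-degrading methylcrotonyl-CoA carboxylase, and Apmap, a membrane protein of adipocytes. Their root-mean-square distance to Chpt1 was 0.045 to 0.086 log2 units over 7 libraries. They were picked as the smallest of 19929 distances (1st percentile 0.233, median 0.506), so their closeness is no test. Rbp4 read 10.82, 11.05 and 11.39 in transgenic replicates 1 to 3, against 9.87, 10.86, 10.33 and 10.43 in wild type replicates 1 to 4. Like Chpt1, it was higher in wild type replicate 2 than in transgenic replicate 1.

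Within the transgenic group, replicate 3 was above the gene's own mean in 7 of the 9 phospholipid genes, replicate 2 in 6 and replicate 1 in 5. Among wild type libraries the counts were 4, 5, 3 and 2 of 9 for replicates 1 to 4.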
